A study of Mus musculus with 6 samples.

Results

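Bcl11b and Zbtb16 encode zinc-finger transcription factors that act in the fate decisions of early lymphoid progenitors. Bcl11b is switched on as progenitors commit to the T lineage and helps to silence innate genes. Zbtb16, which encodes PLZF, marks precursors of innate lymphoid cells (ILCs) and innate-like T cells. Bcl11b is also required for the ILC2 type of ILC, and the study describes ILC2 precursors that express both genes together. Cells with RNA of both genes were described here. Members were all cells with at least 1 unique molecular identifier (UMI, 1 counted RNA molecule) of Bcl11b and at least 1 UMI of Zbtb16. There were 1038 such cells among 60671 cells, or 1.71%. The other cells were 7653 with Bcl11b only, 6650 with Zbtb16 only and 45330 with neither gene. In the files the genes are ENSMUSG00000048251 and ENSMUSG00000066687. GENCODE places Bcl11b on chromosome 12 and Zbtb16 on chromosome 9, both on the minus strand, and no annotated gene overlaps either of them.

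RNA was measured by sci-RNA-seq3, which tags the RNA of fixed cells by combinatorial indexing, in 6 libraries with 1 library per condition. Both genotypes carried an mCitrine YFP reporter in the 3′ untranslated region of both Bcl11b alleles, on the C57BL/6 background. WT cells had no further change, whereas ΔTE cells lacked the Bcl11b timing enhancer on both alleles. Bone marrow progenitors of mice aged 2 to 4 months, both sexes combined, were pooled from 6 to 8 mice. They were sorted from culture as DN1 (CD44+ CD25-), DN2a (CD44+ CD25+ Bcl11b-) or DN2b (CD44+ CD25+ Bcl11b+) cells. Sorted cells were then re-cultured for 4 days on OP9-DL1 stromal cells, which present the Notch ligand DL1, with Flt3-L, IL-7, IL-2, SCF and IL-15. A library is named here by genotype and by the stage at which its cells were sorted, and the absence or presence of Bcl11b in the DN2a and DN2b sorts was set before those 4 days. With 1 pooled culture per condition, the effect of a genotype or a start cannot be told apart from a difference between cultures.

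A cell entered if it had 200 genes or more, no more than 2000 UMIs, and mitochondrial genes took no more than 30% of them. The libraries then held 3401 to 19489 cells with a median of 386 to 485 UMIs, and no full barcode was shared between libraries. WT DN2a stood apart from the others. The mitochondrial limit removed 2.59% of its cells against 26.8% to 56.6% elsewhere, and its median mitochondrial share was 13.3% against 20.9% to 23.9%. The barcodes name 3 wells per library, taken here as reverse-transcription wells, which the labels do not state. Of the 3 wells of ΔTE DN2a, 1 also differed, with both genes in 0.850% of cells against 2.33% and 2.72% in the others. That well was the shallowest of the 3, with a median of 390 UMIs against 472 and 511.5.

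The cells that met the rule had few UMIs of either gene. In 603 of them (58.1%) there was exactly 1 UMI of each, 182 had 1 UMI of Bcl11b and at least 2 of Zbtb16, and 197 had the reverse. Only 56 (5.39%) had at least 2 UMIs of both, and the highest counts in a cell were 6 for Bcl11b and 11 for Zbtb16. Just outside the rule lay 5761 cells with 1 UMI of Bcl11b and none of Zbtb16, and 4976 cells with the opposite. Most cells of the group therefore met the rule by 1 molecule of at least 1 gene. Every cell with only 1 of the genes missed it by 1 molecule.

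Detection depended on depth. The cells with both genes had a median of 571 to 815 UMIs per library, whereas the remaining cells had 383 to 483. When the cells of each library were split into 10 equal classes of depth, the share with both genes went from 0.577% in the shallowest class to 5.31% in the deepest. For this reason the number of cells with both was set against an expected number. Within each class, the number of cells with Bcl11b was multiplied by the share with Zbtb16, and the products were summed over classes. A ratio of 1 then means that the 2 genes were found together as often as their single shares give at like depth. Intervals of 95% are exact Poisson intervals and cover counting error only, and UMIs within a cell share its library and its depth.

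**Figure D1:**
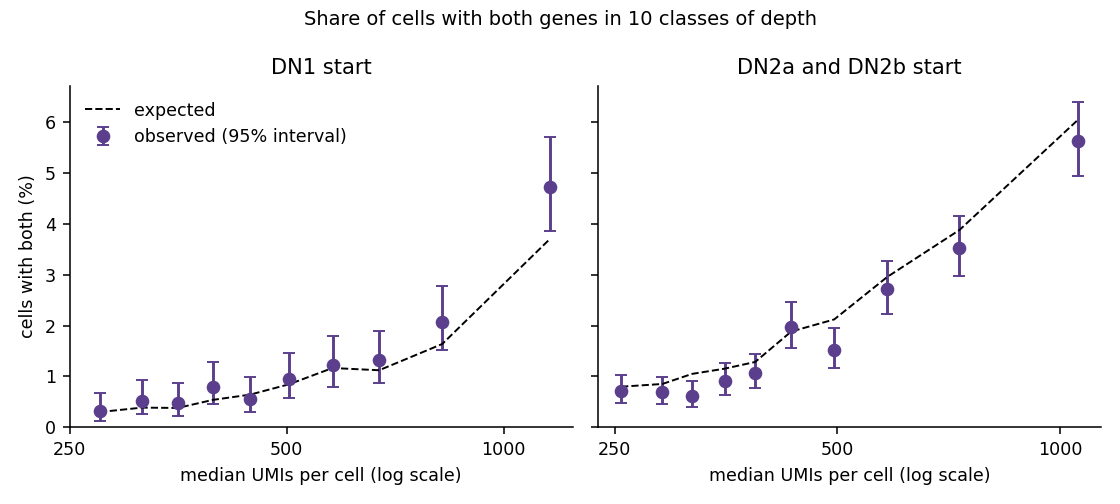
Share of cells with both genes (vertical axis, percent) against the median number of UMIs per cell (horizontal axis, log scale) in 10 classes of depth, for libraries started from DN1 (left) and from DN2a or DN2b (right). Points are observed shares with 95% Clopper-Pearson intervals and the dashed line is the share expected from the single genes; in the deepest class 4.71% of DN1-start cells had both against 3.70% expected, and 5.63% of DN2-start cells against 6.05% expected.

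Across all libraries, cells with both genes were about as frequent as their single shares give. The 1038 cells compared with 1096 expected, a ratio of 0.947 (0.890 to 1.01). By the ratio alone, without its interval, the libraries divided by the stage of the starting cells rather than by genotype. Both libraries started from DN1 lay above 1, and the 4 libraries started from DN2a or DN2b lay below it.

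In WT DN1, 167 cells had both genes against 146 expected, a ratio of 1.14 (0.975 to 1.33). In ΔTE DN1, 108 cells compared with 81.2 expected, a ratio of 1.33 (1.09 to 1.61). The 2 DN1-start libraries together held 275 cells with both against 227 expected, or 1.21 (1.07 to 1.36). In WT DN2a, 310 cells compared with 349.9 expected, a ratio of 0.886 (0.790 to 0.990). WT DN2b held 138 cells against 142 expected, and its ratio of 0.974 (0.819 to 1.15) was the nearest to 1. In ΔTE DN2a, 232 cells compared with 265 expected, a ratio of 0.876 (0.767 to 0.996). ΔTE DN2b held 83 cells against 112 expected and had the lowest ratio, 0.740 (0.590 to 0.918). The 4 DN2-start libraries together gave 763 cells against 868 expected, or 0.879 (0.817 to 0.943), and 0.874 (0.795 to 0.958) without WT DN2a. The pooled intervals of the DN1 start and of the DN2 start did not overlap, but they count the cells of separate cultures together. The starts were not replicated within a genotype and their difference was not tested. Among the WT libraries, the intervals of DN1 and of DN2b each included 1 and overlapped. Grouped by genotype, the 3 WT libraries gave 0.964 (0.889 to 1.04) and the 3 ΔTE libraries 0.923 (0.837 to 1.02), and these intervals overlapped over most of their length.

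**Figure D2:**
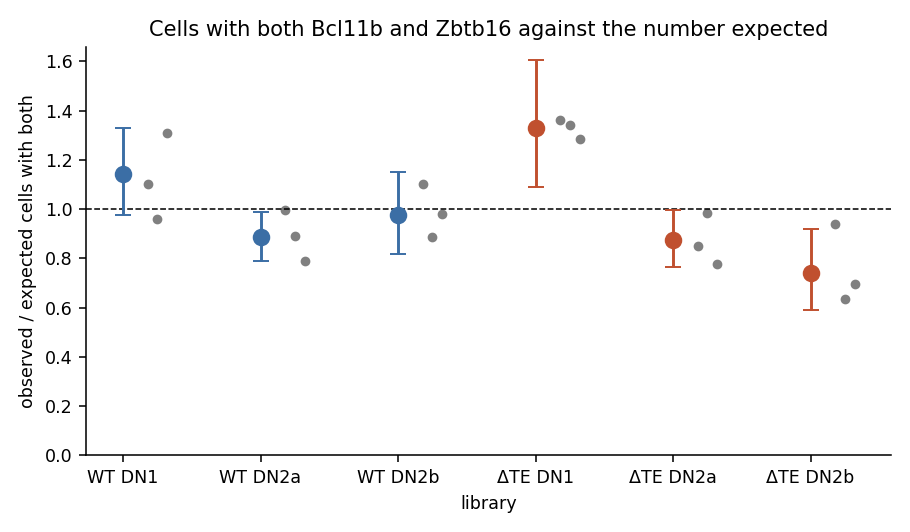
Ratio of observed to expected cells with both genes (vertical axis, no unit) in each library (horizontal axis), WT in blue and ΔTE in orange, with 95% Poisson intervals. Small grey points are the 3 wells of each library named in the barcodes, taken here as technical parts of 1 culture. The 2 DN1 libraries sit at 1.14 and 1.33 above the dashed line at 1, and the 4 DN2a and DN2b libraries sit between 0.740 and 0.974 below it.

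The wells followed the libraries to a varying degree. All 3 wells of ΔTE DN1 lay above 1, between 1.29 and 1.36, while those of WT DN1 ran from 0.962 to 1.31. The wells of WT DN2a, ΔTE DN2a and ΔTE DN2b lay below 1, the highest at 0.996, and WT DN2b had wells from 0.889 to 1.10. Thinning every cell to 300 UMIs, which leaves out shallower cells, kept the order, with ratios of 1.07 in WT DN1, 1.31 in ΔTE DN1, 0.819 in WT DN2a, 0.988 in WT DN2b, 0.756 in ΔTE DN2a and 0.702 in ΔTE DN2b.

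The ratio was also taken among cells with a UMI of Thy1, a surface glycoprotein of T-lineage cells and some ILCs, which lowered it below 1 in the DN1 libraries. It was then 0.930 (0.618 to 1.34) in WT DN1 and 0.968 (0.627 to 1.43) in ΔTE DN1, and 0.868 to 0.905 in the 4 DN2-start libraries. The intervals are wide and include the values over all cells for both DN1 libraries. When cells with at least 2 UMIs of the stroma or myeloid marker lists were left out, the ratios were 1.11 (0.949 to 1.30) in WT DN1 and 1.26 (1.03 to 1.53) in ΔTE DN1. Requiring at least 2 UMIs of each gene lowered the ratio over all libraries to 0.724 (0.547 to 0.940), on 56 cells.

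The number of UMIs of 1 gene was also set against the chance of finding the other. In the DN2-start libraries, cells with 1 UMI of Zbtb16 had Bcl11b in 16.8% against 18.1% expected, a ratio of 0.925 (0.852 to 1.00). Cells with 2 UMIs of Zbtb16 had Bcl11b in 14.1% against 18.7% expected, a ratio of 0.753 (0.626 to 0.899). Those with 3 or more had it in 14.9% against 19.9% expected, a ratio of 0.748 (0.559 to 0.982). The intervals of these 3 groups overlap. In the DN1-start libraries the ratio was 1.22 (1.07 to 1.40) at 1 UMI of Zbtb16, 1.24 (0.911 to 1.64) at 2 UMIs and 0.965 (0.540 to 1.59) at 3 or more. By UMIs of Bcl11b the ratio did not fall steadily. In the DN2-start libraries it was 0.890 (0.818 to 0.966) at 1 UMI, 0.821 (0.689 to 0.972) at 2 and 0.913 (0.700 to 1.17) at 3 or more. In the DN1-start libraries it was 1.25 (1.09 to 1.42), 0.915 (0.641 to 1.27) and 1.59 (0.971 to 2.45) in the same order.

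Bcl11b was found in 10.0%, 18.7% and 31.8% of cells of WT DN1, DN2a and DN2b, and in 4.11%, 10.9% and 20.02% of the matching ΔTE libraries. Zbtb16 went the other way with genotype, with 11.4%, 8.69% and 8.09% in WT and 16.7%, 18.4% and 14.5% in ΔTE. Both were found together in 1.53%, 1.59% and 2.78% of WT cells and in 1.05%, 2.001% and 2.44% of ΔTE cells. In every library started from ΔTE cells Bcl11b was thus less frequent and Zbtb16 more frequent than in the matching WT library, while the share with both lay between 1.05% and 2.78% in all 6. These values chose the cells and carry no test.

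Of cells with Bcl11b, Zbtb16 was also present in 15.3%, 8.50% and 8.73% in WT DN1, DN2a and DN2b, and in 25.5%, 18.3% and 12.2% in ΔTE. At the same depths the single shares give 13.4%, 9.59% and 8.96% in WT, and 19.2%, 20.9% and 16.5% in ΔTE. Of cells with Zbtb16, Bcl11b was present in 13.4%, 18.3% and 34.3% in WT and in 6.30%, 10.9% and 16.8% in ΔTE.

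The ratio of the ΔTE share to the WT share of cells with both depended on the start and on depth. For the DN1 start it was 0.686 (0.540 to 0.873), and 0.703 after thinning to 300 UMIs. For the DN2a start it was 1.26 (1.06 to 1.49), but thinning brought it to 0.904, on the other side of 1, and a limit of 20% mitochondrial UMIs brought it to 0.942. For the DN2b start it was 0.879 (0.672 to 1.15), and 0.922 after thinning, but 0.524 with the limit of 20% mitochondrial UMIs. No direction of the genotype difference can be read for the DN2a start, where the WT library was the shallowest and had the low mitochondrial share.

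**Figure D3:**
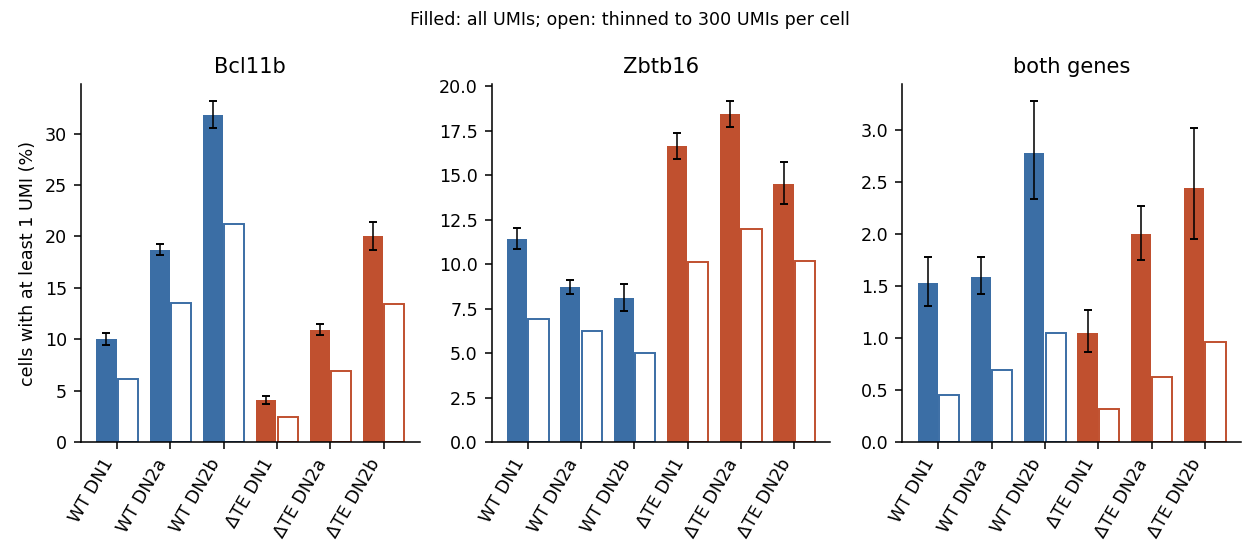
Share of cells with at least 1 UMI (vertical axis, percent) of Bcl11b, of Zbtb16 and of both in each library (horizontal axis), WT in blue and ΔTE in orange. Filled bars use all UMIs, with 95% Clopper-Pearson intervals, and open bars are shares after thinning to 300 UMIs; thinned shares with both run from 0.319% in ΔTE DN1 to 1.04% in WT DN2b.

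Free RNA gives UMIs in cells that do not express a gene. Cells with at least 2 UMIs of the stroma list served as the comparison, and they may be stromal cells, doublets or other cells with free stromal RNA. These 3578 cells had Bcl11b in 7.13% (6.31 to 8.02) and Zbtb16 in 4.11% (3.48 to 4.81), at a median of 541 UMIs. All 60671 cells had them in 14.3% and 12.7% at a median of 434 UMIs. After thinning to 300 UMIs the shares were 3.505% against 9.46% for Bcl11b and 2.11% against 8.32% for Zbtb16. Both genes together were found in 16 of them (0.447%), which was 0.0833% after thinning against 0.611% in all cells. The part of free RNA in the cells with both was not tested.

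To place the pair among other pairs, the same ratio was computed for Bcl11b and for Zbtb16 with each of 7336 genes found in at least 1% of cells and expected together in at least 50. The median ratio over all genes was 1.01 for each. For Bcl11b, the 95% interval lay above 1 for 868 genes (11.8%) and below 1 for 534 (7.28%). For Zbtb16 these numbers were 803 (10.9%) and 563 (7.67%). Zbtb16 ranked 1472 from the lowest of the 7336 partners of Bcl11b, which is percentile 20.1. The middle 90% of genes lay between 0.831 and 1.15, and the 0.947 of Zbtb16 was inside that range.

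The strongest partners of Bcl11b were genes of the T-cell receptor complex and its rearrangement. Cd3d, an invariant chain of the receptor complex, had the highest ratio of all genes at 1.51 (1.33 to 1.70), followed by Cd3g, another such chain, at 1.497 (1.42 to 1.58). Dntt, which encodes terminal deoxynucleotidyl transferase, had 1.46, Cmah, a sialic acid hydroxylase, 1.45 and Bbof1 1.45, each above 1 in all 6 libraries. Of the 16 T lineage genes that could be measured, of 22 listed, 14 lay above 1 with their interval, none lay below, and the median was 1.25. The lowest ratios were those of Col6a3 at 0.252, Fbn1 at 0.267, Itga1 at 0.268, Adam23 at 0.270 and Samd4 at 0.277, and all 10 measured stroma genes lay below 1.

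Zbtb16 kept other company. Its highest ratios were Hmga2, a chromatin protein of immature cells, at 1.95, Chd7, a chromatin remodeller, at 1.88, Itgae, which encodes CD103, at 1.88, Fam129a at 1.82 and Pdcd1, which encodes PD-1 and marks ILC precursors, at 1.82 (1.63 to 2.03). Among list genes Themis, needed for thymocyte selection, followed at 1.796 (1.63 to 1.98), Rora, a receptor needed for ILC2s, at 1.76 (1.59 to 1.93), Maf at 1.504 and Gata3, needed by T cells and ILC2s alike, at 1.49 (1.40 to 1.58). Of 10 measured ILC precursor genes, 9 had their interval above 1 and none below it, with a median of 1.28. Of the 16 T lineage genes, 6 had their interval above 1 and 4 below it, with a median of 1.01. The lowest ratios of all genes with Zbtb16 were those of Adam23 at 0.157, Csf1 at 0.183, Il1rn at 0.198, Col2a1 at 0.200 and Bicc1 at 0.211.

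Some genes were found more often than expected with each of the 2 genes. Themis had ratios of 1.40 with Bcl11b and 1.796 with Zbtb16, and Gata3 had 1.11 and 1.49. Tcf7, an early T-lineage and ILC factor, had 1.15 and 1.22, and its relative Lef1 had 1.20 and 1.33. Cd163l1, a scavenger receptor of gamma-delta T cells, had 1.25 and 1.38. Others went with 1 and not the other. Cd3g had 1.497 with Bcl11b and 0.630 (0.563 to 0.704) with Zbtb16, Cd3d had 1.51 and 0.577, and Dntt had 1.46 and 0.504. Rora had 0.850 (0.752 to 0.958) with Bcl11b against 1.76 with Zbtb16, Gzmb, a cytotoxic protease, had 0.753 against 1.37, and Fcer1g, a signalling chain of NK cells and myeloid cells, had 0.748 against 1.26. Notch1 had 1.19 (1.13 to 1.26) with Bcl11b and 0.814 (0.756 to 0.874) with Zbtb16, and of the 8 measured Notch receptors and targets 4 had their interval below 1 with Zbtb16 and none with Bcl11b. Of the 17 genes of S and G2/M phase, 9 had their interval above 1 with Bcl11b and none below it, with a median of 1.06. With Zbtb16 none of the 17 had an interval that excluded 1, and the median was 0.980.

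**Figure D4:**
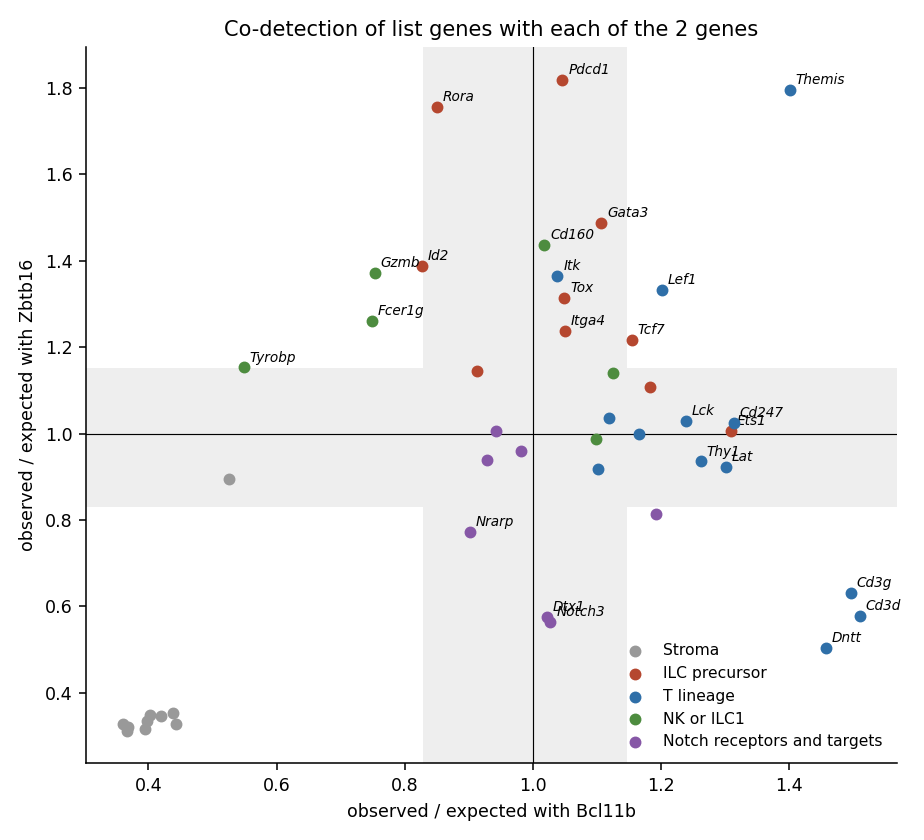
Observed over expected number of cells with a list gene and Bcl11b (horizontal axis) against the same ratio with Zbtb16 (vertical axis), 1 point per gene of 5 lists, coloured by list; a gene of several lists is drawn once. Grey bands hold the middle 90% of 7336 genes, from 0.831 to 1.15 for Bcl11b and from 0.833 to 1.15 for Zbtb16; Themis lies outside both bands at 1.40 and 1.796, whereas Cd3g, Cd3d and Dntt lie at the lower right.

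For the other genes of the cells with both, their UMIs were summed per library and compared with the same number of Bcl11b-only, Zbtb16-only and neither cells, drawn from the same library at the nearest depth. This gave 24 sums, 4 per library. Levels are CPM, the UMIs of a gene scaled to a common total over all genes of a sum other than Bcl11b and Zbtb16. A sum cannot tell more cells with a gene from more RNA per cell. The 6 libraries are 6 conditions, so that a test across them asks whether a difference recurs over conditions, and edgeR's quasi-likelihood test with the library as a block and Benjamini-Hochberg adjustment over 7867 genes was used. Median depths of the 4 sets differed by at most 5 UMIs within a library.

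Against Bcl11b-only cells, the cells with both had higher levels of 6 genes (0.0763% of those tested) and lower levels of 20 (0.254%), with 505 genes at an unadjusted p under 0.05. The higher genes were Itga4, Tox, Cpa3, Aff3, Inpp4b and Chn2. The lower ones included the receptor chains Cd3g and Cd3d, and 6 were on the stroma list, among them the matrix genes Col1a1, Fn1 and Bgn. Without WT DN2a only Inpp4b and Itga4 were higher and Cd3d, Cd3g and Marcks lower.

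Itga4, the alpha 4 integrin carried by progenitors and ILC precursors, was at 1338, 1352 and 1397 CPM in the cells with both of WT DN1, DN2a and DN2b, and at 1409, 1363 and 1401 in those of ΔTE. The Bcl11b-only cells had 985, 883 and 935 in WT and 1096, 1025 and 788 in ΔTE. The 2 groups did not overlap, and the difference was 0.51 ± 0.09 on the log2 scale (SE; adjusted p = 5.29e-05, edgeR). Itga4 shares its locus with Cerkl on the opposite strand, and whether counting used strand is not given in the sources used here.

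Tox, a factor needed for ILC and CD4 T cell development, was at 1009, 970 and 1657 in WT cells with both and at 758, 991 and 1213 in ΔTE cells. In Bcl11b-only cells it was at 632, 739 and 916 in WT and at 748, 841 and 976 in ΔTE. It was higher in the cells with both in 6 of 6 libraries, by 0.43 ± 0.10 (adjusted p = 0.00548, edgeR), although the ΔTE DN1 values were nearly the same. The call was lost without WT DN1 (adjusted p = 0.165), WT DN2a (adjusted p = 0.233) or WT DN2b (adjusted p = 0.234) and with DESeq2 (adjusted p = 0.773). It was also lost when all cells were used without matching on depth, and with at most 1000 UMIs per cell.

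Cpa3, a protease of mast cells and of early progenitors, was higher in 5 of 6 libraries, by 0.51 ± 0.11 (adjusted p = 0.00146, edgeR), with ΔTE DN1 the exception at 747 against 814. Without WT DN2a the difference was 0.43 (adjusted p = 0.265, edgeR), and with DESeq2 the adjusted p was 0.0575. Aff3, a nuclear protein of the AF4 family, was higher in 6 of 6 libraries by 0.28 ± 0.07 (adjusted p = 0.0326, edgeR), a call lost when any library except ΔTE DN2b was left out (adjusted p from 0.0587 to 0.311). Inpp4b, a phosphoinositide phosphatase, and Chn2, a regulator of Rac, were higher in 5 of 6 libraries by 0.89 ± 0.16 and 0.69 ± 0.15. Inpp4b passed without each library in turn, whereas Chn2 passed only when WT DN1 was the library left out. Neither passed with DESeq2, nor when all cells were used without matching on depth. These 2 were named after their values were seen, to complete the 6.

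Cd3g was at 71.6, 261 and 385 in WT cells with both and at 32.02, 151 and 154 in ΔTE cells. Bcl11b-only cells had 93.4, 420 and 569 in WT and 249.5, 280 and 702 in ΔTE. Cd3g was lower in the cells with both in every library, by 0.98 ± 0.17 on the log2 scale (adjusted p = 5.29e-05, edgeR). With DESeq2 its log2 difference was -1.15 (adjusted p = 0.0676), and without matching on depth it was -1.14 (adjusted p = 0.141, edgeR). Cd3d fell in the same way, by 2.11 ± 0.44 on the log2 scale (adjusted p = 0.000977, edgeR), on 13 UMIs against 59, and did not pass without WT DN2b (adjusted p = 0.234) or with DESeq2 (adjusted p = 0.137). Marcks, a substrate of protein kinase C, and Cdc25b, a phosphatase that drives the cell cycle, were lower in 6 of 6 libraries and were also named after their values were seen.

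Of the 16 tested T lineage genes these 2 fell, no other passed, and the median log2 difference was -0.09. Thy1 was lower in 6 of 6 libraries, with a log2 difference of -0.33 ± 0.12 that did not pass (adjusted p = 0.394, edgeR). Of the 11 tested ILC precursor genes 2 rose, Itga4 and Tox, and 10 had a log2 difference above 0, as had 49.4% of all genes. The median was 0.43 against -0.00 over all genes. Rora had a log2 difference of 1.02 ± 0.29 that did not pass (adjusted p = 0.0797, edgeR). It was at 299 and 342 in the cells with both of the DN2b libraries, against 67.5 and 85.6 in Bcl11b-only cells, and at 21.3 to 72.4 in the cells with both of the other 4 libraries. Gata3 had a difference of 0.55 ± 0.17 (adjusted p = 0.167, edgeR), Icos, a costimulator of ILC2s, 1.496 ± 0.57 on 27 UMIs against 9 (adjusted p = 0.438, edgeR) and Id2, needed for ILCs, 0.83 ± 0.36 (adjusted p = 0.609, edgeR). For Gzma (0.23 ± 0.10), Tcf7 (0.25 ± 0.12), Runx1 (-0.13 ± 0.09) and Fcer1g (0.32 ± 0.22) the adjusted p was 0.591 or more. Il2rb, the receptor chain for IL-2 and IL-15, had too few UMIs to be tested, with 7 in the cells with both of ΔTE DN2b, 2 each in those of WT DN2a and ΔTE DN2a and none in the other 3. All 8 tested Notch receptors and targets had a log2 difference below 0, whereas 49.4% of all genes lay above it. Their median was -0.45, and none passed.

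The 3 comparisons share the sums of the cells with both, so their values are given side by side and are not independent. Against Zbtb16-only cells, 2 genes were higher (0.0254%) and 13 lower (0.165%), with 505 at an unadjusted p under 0.05. Of the 13 lower genes, 6 were on the stroma list and another was Gzmb. Without WT DN2a, Arpp21 alone passed, as it did with DESeq2. None of the 15 passed when all cells were used without matching on depth. Arpp21, a cAMP-regulated phosphoprotein of lymphoid progenitors, was at 801, 1168 and 1089 in WT cells with both and at 1003, 1395 and 1025 in ΔTE cells. In Zbtb16-only cells it was at 416, 775.5 and 782 in WT and at 854, 894 and 633.5 in ΔTE. It was higher in 6 of 6 libraries by 0.59 ± 0.10 (adjusted p = 2.33e-05, edgeR). Pcgf5, a Polycomb subunit, was also higher in all 6, by 0.51 ± 0.12 (adjusted p = 0.0207, edgeR). The call for Arpp21 held without each library in turn, whereas that for Pcgf5 was lost without WT DN1, WT DN2a, ΔTE DN2a or ΔTE DN2b (adjusted p from 0.0673 to 0.153). Without matching, Arpp21 had a log2 difference of 0.49 (adjusted p = 0.516, edgeR) and Pcgf5 one of 0.34 (adjusted p = 0.107, edgeR), and with DESeq2 Pcgf5 had an adjusted p of 0.277.

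Gzmb, the cytotoxic protease granzyme B, was at 179, 222 and 328 in WT cells with both and at 256, 210.1 and 359 in ΔTE cells. Zbtb16-only cells had 322, 252 and 401 in WT and 267, 409.5 and 1181 in ΔTE. It was lower in the cells with both in 6 of 6 libraries, by 0.71 ± 0.16 on the log2 scale (adjusted p = 0.0207, edgeR), though the 2 groups overlap across libraries and the gap in ΔTE DN1 was small. The call was lost without WT DN1, WT DN2a, ΔTE DN2a or ΔTE DN2b (adjusted p from 0.106 to 0.415), and without ΔTE DN2b the difference was -0.51. Without matching it was -0.69 (adjusted p = 0.503, edgeR), and with DESeq2 the adjusted p was 1.00. Cd3g lay on the other side of this comparison, with a log2 difference of 0.81 ± 0.22 that did not pass (adjusted p = 0.0919, edgeR). Itga4 and Tox, which differed from Bcl11b-only cells, had log2 differences of 0.06 ± 0.09 and -0.07 ± 0.09 from Zbtb16-only cells. Rora was at 35.8, 87.2 and 381 in WT Zbtb16-only cells and 42.7, 135 and 634 in ΔTE ones, a log2 difference of -0.64 ± 0.23 in the cells with both (adjusted p = 0.453, edgeR).

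**Figure D5:**
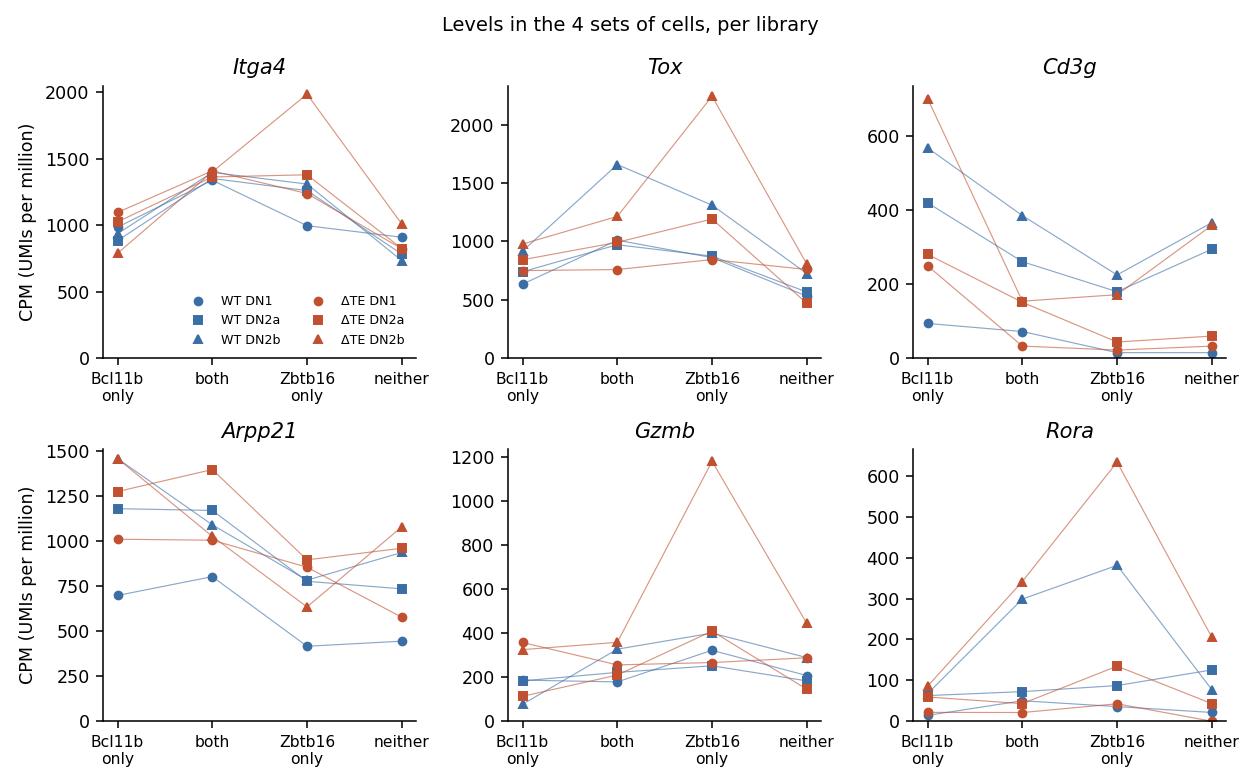
Levels of 6 genes (vertical axis, CPM) in the 4 sets of cells (horizontal axis), 1 point per library, WT in blue and ΔTE in orange, with circles for the DN1, squares for the DN2a and triangles for the DN2b start and lines joining the sets of 1 library. Itga4 in the cells with both lies between 1338 and 1409 in all libraries, above the Bcl11b-only cells, whereas Cd3g in the cells with both is below the Bcl11b-only cells in each library.

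The other lists gave few calls. Of 4 tested ILC2 genes none passed against any set, with median log2 differences of 0.61, -0.37 and 0.55 from Bcl11b-only, Zbtb16-only and neither cells. Of 7 tested genes of NK cells or ILC1, Gzmb was lower against Zbtb16-only cells and Gzma higher against cells with neither, and the medians were 0.37, -0.18 and 0.07 in the same order. None of the 6 tested genes of innate-like gamma-delta T cells, the 10 progenitor genes or the 17 genes of S and G2/M phase passed in any comparison. Of 23 tested partner factors of Bcl11b and the early T-cell program 3 were higher against cells with neither, and none passed against the other 2 sets. The medians over all genes lay between -0.01 and 0.00 in the 3 comparisons.

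Cells with markers of other types were counted as well. Of the cells with both, 79.3% had at least 2 UMIs of the T lineage list, against 56.4% of the remaining cells, and 41.8% had that many of the list for NK cells or ILC1, against 24.0%. For the list of mast cells or basophils, to which Cpa3 belongs, the shares were 17.3% and 6.43%, and for the progenitor list 17.9% and 12.6%. The stroma list reached 2 UMIs in 1.54% against 5.97%, the myeloid list in 0.674% against 1.70% and the B lineage list in 0.193% against 0.797%. The cells with both were deeper, and the part of depth in the higher shares was not tested. At matched depth, the progenitor list had a higher summed level than in cells with neither in only 3 of 6 libraries. The lists for the T lineage, for NK cells or ILC1 and for mast cells or basophils were higher in 6 of 6. For the T lineage list the median was 5677 against 4592 CPM. For NK cells or ILC1 it was 2014 against 1627, and for mast cells or basophils 898 against 637. Cpa3 alone had a median of 812 CPM in the cells with both. Of the tested genes, the log2 difference from cells with neither was above 0 for 13 of 16 in the T lineage list. It was above 0 for 4 of 7 for NK cells or ILC1, 1 of 2 for mast cells or basophils and 49.3% of all genes. Against Bcl11b-only cells these lists were higher in 0, 6 and 5 libraries in that order, and against Zbtb16-only cells in 6, 1 and 6. Thy1 was found in 16.8% to 41.0% of the cells with both, by library, and in 8.20% to 30.6% of all cells.

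Markers of stromal cells moved with all 3 comparisons, though not in every library. Their summed level was higher in the cells with both in 1 library against Bcl11b-only cells, 2 against Zbtb16-only cells and 0 against cells with neither. The summed level of the 12 stroma genes was 120 to 357 in the cells with both, 174 to 2264 in Bcl11b-only cells, 117 to 2011 in Zbtb16-only cells and 496 to 6097 in cells with neither. WT DN2a gave the highest level in each set. Of 10 tested stroma genes 6 were lower against Bcl11b-only cells, 6 against Zbtb16-only cells and 9 against cells with neither. Without WT DN2a no stroma gene passed against Bcl11b-only or Zbtb16-only cells. Collagen Col1a1 was lower by 2.31 ± 0.36 on the log2 scale against Bcl11b-only cells, and WT DN2a gave the highest value of that set at 256. Without cells that had at least 2 UMIs of the stroma or myeloid lists, no stroma gene passed against either single-gene set. Itga4 (0.51), Tox (0.41), Cpa3 (0.46), Cd3g (-0.98) and Cd3d (-2.12) still passed against Bcl11b-only cells, as did Arpp21 (0.57), Pcgf5 (0.52) and Gzmb (-0.75) against Zbtb16-only cells. Rora then passed as well, at 1.33 (adjusted p = 0.0114, edgeR), and Aff3 did not (adjusted p = 0.116).

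Against cells with neither gene, 76 genes were higher (0.966%) and 202 lower (2.57%), with 927 at an unadjusted p under 0.05. Without the cells that had at least 2 UMIs of the stroma or myeloid lists these counts were 20 and 1, so that most lower calls were lost with those cells left out. Of the list genes, Itga4 rose by 0.70 ± 0.09, Tox by 0.79 ± 0.10, Cpa3 by 0.71 ± 0.11, Gzma by 0.56 ± 0.10 and Themis by 1.19 ± 0.28, and these 5 also passed without those cells. Gata3 (0.83 ± 0.18), Tcf7 (0.48 ± 0.12), Cd247, a signalling chain of the T-cell receptor, (0.88 ± 0.21) and Ikzf2, the factor Helios, (0.62 ± 0.13) passed as well in the comparison with all cells (adjusted p from 0.000159 to 0.00459, edgeR), but not without those cells (adjusted p from 0.112 to 0.650). Themis did not pass without WT DN2a (adjusted p = 0.145), nor did Tcf7 (adjusted p = 0.199). The 5 largest rises in all 6 libraries were those of Colq (1.76 ± 0.49), Plcl1 (1.70 ± 0.33), Elac2 (1.70 ± 0.47), Epcam (1.69 ± 0.52) and Rapgef3 (1.64 ± 0.51), all at low levels of at most 279 CPM. The 5 largest falls among genes lower in all 6 libraries were those of Acta2, Col6a3, Ddr2, Tcf7l1 and Cxcl12, between -5.53 and -4.45. Ebf1, a B-cell and stromal factor, and Mpo, a myeloid peroxidase, also fell, with log2 differences of -3.30 ± 0.37 and -2.22 ± 0.46. Cd3g had a log2 difference of 0.07 ± 0.20 from cells with neither, of varying sign between libraries.

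Among the cells with both, ΔTE was compared with WT within each start for the 6458 genes with at least 20 UMIs in the 2 genotypes together. The values are given as a description, no test across the 3 starts was made, and intervals cover counting error only. In all 3 starts 562 genes were higher in ΔTE (8.7%) and 1179 lower (18.3%), and with the ratio over 2-fold these were 80 (1.24%) and 168 (2.6%). Of 90 list genes, 10 were higher and 20 lower in all 3 starts, with a median log2 ratio of -0.08 against -0.10 over all genes. In depth-matched cells with neither gene, the NK or ILC1 list, which holds Gzma, was at 1481, 1472 and 1244 CPM in WT. In ΔTE it was at 1772, 2111 and 2052, in the order DN1, DN2a and DN2b. Whether a genotype difference is particular to the cells with both was not tested.

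Gzma, the protease granzyme A of NK cells, was at 723, 946 and 790 in WT cells with both from DN1, DN2a and DN2b and at 1259, 1573 and 1042 in ΔTE ones, a log2 ratio of 0.73 (0.53 to 0.93) over all starts. Cd163l1, the gamma-delta scavenger receptor, was at 7.16, 29.0 and 135 in WT and at 117, 118.5 and 495 in ΔTE, a ratio of 1.98 (1.24 to 2.77). Id2 was at 7.16, 33.8 and 135 in WT and at 42.7, 37.7 and 342 in ΔTE, or 0.91 (0.08 to 1.77). The ΔTE cells were above the WT cells of the same start for these 3 genes, though for Id2 by little in DN2a. Cd163l1 had only 21 UMIs in WT and 62 in ΔTE over all starts, and Id2 22 and 31. Their values in single starts, above all in WT DN1, therefore rest on very few molecules. Itga2b and Cd247 were also higher in each start, with log2 ratios of 1.13 (0.32 to 1.961) and 0.50 (0.00 to 0.99), and Pde4d, a cAMP phosphodiesterase, by 0.27 (0.13 to 0.41). For Lef1, Pcna, Tcf12 and Itga4 the intervals include 0.

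Cd3g was at 71.6, 261 and 385 in WT and at 32.02, 151 and 154 in ΔTE cells with both, a log2 ratio of -0.96 (-1.53 to -0.42). Cd34, a progenitor surface protein, had 45 UMIs in WT and 4 in ΔTE, a ratio of -3.08 (-5.01 to -1.62). Runx2 was at 222, 203 and 116 in WT and at 53.4, 97.0 and 85.4 in ΔTE, a ratio of -1.19 (-1.86 to -0.56). Its relative Runx1, a partner of Bcl11b at many sites, was lower by less, at 1503, 1748 and 1436 against 1174, 1390 and 1042, a ratio of -0.33 (-0.51 to -0.16). Sox4 had -0.50 (-0.77 to -0.24) and 5830411N06Rik, a scavenger receptor gene near Cd163l1, -1.09 (-1.95 to -0.29). The E-protein gene Tcf3 had -0.96 (-1.74 to -0.23), Zbtb1 -0.85 (-1.64 to -0.11), Itgb7 -0.63 (-1.18 to -0.10), Nkg7 -0.47 (-0.85 to -0.09) and Zbtb20 -0.42 (-0.85 to -0.01). For 8 further lower list genes, among them Notch2, Mcm3, Tcf4 and Mki67, the ratios lay between -0.71 and -0.13.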

How the data were processed

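The authors deposited raw UMI counts per gene and cell barcode for 6 libraries, and the submitters' processing notes name mm9. The aligner is not given in the sources used here. Totals were 8007395 to 14555100 UMIs per library over all barcodes. Cell filters used the limits the study states, which left a number of cells other than the study's, and no doublet caller was run. Members and gene lists were chosen with earlier results of these data known. Of 190 list genes 187 were in the files.

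For the sets, UMIs were summed per library over equal numbers of cells matched on depth. Genes with at least 50 UMIs over the 24 sums were fitted with edgeR 4.0.16 (TMM, library as block), with DESeq2 1.42.0 as an alternative, and called at an adjusted p under 0.05. Ratios were computed in Python 3.11.15 with scipy 1.17.1 and tested on simulated data. Chromosome and strand are from GENCODE M21 (GRCm38), a build other than that of the files, so no coordinates or sequences are given. Named were the list genes that passed, the 5 highest and 5 lowest passing genes with 1 direction in all 6 libraries, 12 genes always given, the 5 highest and 5 lowest co-detection ratios and, between genotypes, list genes with 1 direction in all 3 starts. A list gene that met this rule is not reported here.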

Additional observations from a re-analysis of the deposited data

Results flagged for a closer look

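The ratio of observed to expected cells with both genes was 1.21 (1.07 to 1.36) in the DN1-start libraries and 0.879 (0.817 to 0.943) in the DN2a-start and DN2b-start libraries. Every library of the first kind lay above 1 and every library of the second kind below it. The intervals of WT DN1 and of WT DN2b included 1 and overlapped. The difference between the starts was not tested, and each combination of start and genotype had 1 library.

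The share of cells with both genes in ΔTE divided by that in WT was 0.686 for the DN1 start and 1.26 for the DN2a start, on opposite sides of 1. This difference was not tested either. The DN2a value changed side after thinning to 300 UMIs, to 0.904, while the DN1 value was then 0.703.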

How the results depend on the processing

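Without depth strata the ratio of observed to expected cells was 1.34 in WT DN1, 1.53 in ΔTE DN1 and 1.07 over all libraries. At most 20% mitochondrial UMIs gave 1.61 in ΔTE DN1, and thinning to 300 UMIs gave 0.756 in ΔTE DN2a and 0.873 over all libraries. With at least 2 UMIs of each gene it was 0.768 in WT DN1, 0.526 in ΔTE DN2a, 0.408 in ΔTE DN2b and 0.724 over all libraries. Among cells with a Thy1 UMI it was 0.930 in WT DN1 and 0.968 in ΔTE DN1, both below 1. Leaving out each library in turn gave 0.921 to 0.976 over all libraries.

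The share of cells with both depends on depth by construction. With at least 300 genes it was 2.30%, 2.48%, 3.91%, 1.39%, 2.92% and 3.82% in WT DN1, DN2a, DN2b and ΔTE DN1, DN2a, DN2b. Thinning gave 0.454%, 0.690%, 1.04%, 0.319%, 0.624% and 0.962% in the same order. At most 1000 UMIs gave 1.17% in WT DN1, 1.41% in WT DN2a, 0.748% in ΔTE DN1 and 1.61% in ΔTE DN2a. At most 20% mitochondrial UMIs gave 3.42% in WT DN2b, 1.47% in ΔTE DN2a and 1.79% in ΔTE DN2b. The ΔTE to WT ratio for DN2a became 0.942 with that limit and 0.904 with thinning, and for DN2b it became 0.524 with that limit.

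Called genes numbered 26 against Bcl11b-only, 15 against Zbtb16-only and 278 against neither cells. In the same order, DESeq2 gave 3, 1 and 148, a minimum of 200 UMIs gave 16, 9 and 131, unmatched cells gave 57, 2 and 428, at most 1000 UMIs gave 10, 3 and 71, and leaving out cells with stroma or myeloid UMIs gave 13, 5 and 21. Leaving out each library gave 5 to 32, 1 to 16 and 105 to 305, with the lowest counts without WT DN2a. The cause of these changes was not tested. Among single genes the direction changed in these cases. Against Bcl11b-only cells, Sparc was at 0.00089 with at most 1000 UMIs. Against Zbtb16-only cells, unmatched cells gave -0.0084 for Tcf7 and -0.11 for Gata3, Tox was -0.15 to 0.068 without each library, above 0 without ΔTE DN2b, and Id2 was 0.0040 with DESeq2, 0.16 with at most 1000 UMIs, and -0.19 to 0.10 without each library, above 0 without WT DN2a, ΔTE DN2a or ΔTE DN2b. Against neither cells, Runx1 was -0.053 without cells with stroma or myeloid UMIs and Fcer1g 0.00048 with at most 1000 UMIs. Cd3g was then -0.25 unmatched, -0.50 with at most 1000 UMIs, -0.18 without cells with stroma or myeloid UMIs, and -0.14 to 0.26 without each library, below 0 without ΔTE DN2a or WT DN1. Of 1016 values of single genes under alternatives, 813 kept direction and call, 179 lost the call, 8 gained it and 16 changed direction.

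The labels give no replicate numbers, the library was a block in the test of the sets, and no test that pairs the genotypes by start was made. Few UMIs per cell limit the precision, since most members have 1 UMI of each gene.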
